A study of Mus musculus with 54 samples.

Results

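Genes of fast-twitch skeletal muscle fibres were followed through the hearts and livers of mice fed a high-fat diet (HFD). The 10 genes, Acta1, Myh1, Myh2, Myh4, Tnnt3, Tnni2, Tnnc2, Mylpf, Actn3 and Pvalb, were taken by name from 54356 annotated genes. They were chosen by their measured values in the liver, because they were far higher in the livers of 2 Mrps12+/+ mice than in the other livers. Their levels in the liver are therefore a description and were not tested against genotype.

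RNA was measured in 9 hearts and 9 livers, with 3 mice of each genotype per tissue. Mrps12+/+ mice carried the normal gene for the mitochondrial ribosomal protein Mrps12, Mrps12ep/ep mice were homozygous for a mutation that makes mitochondrial translation error-prone, and Mrps12ha/ha mice were homozygous for one that makes it hyper-accurate. All were male C57BL/6 mice of 20 weeks, matched for age and litter, on a diet in which fat gave 42% of the energy, and the mutations are in the germ line, so every cell of the mutants carries them. Total RNA came from whole hearts or livers, and the 3 technical libraries of each mouse were pooled into 1 column of DESeq2-normalized counts, the unit of all levels below unless another is given.

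Skeletal muscle fibres contract when calcium binds troponin on the thin filament and lets the heads of myosin on the thick filament pull on actin. Fast and slow fibres build the same machine from different genes, so that a fibre type can be read from which myosin heavy chain, troponin and calcium-handling genes it uses. Adult liver has no skeletal fibres, and heart muscle uses mostly its own set of these genes.

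All low normalized counts, up to 20 reads, were whole multiples of the value of 1 read in their column, within 0.1 reads, which gave the depth. Hearts held 11202876 to 51480319 reads and livers 21238157 to 81518208. The heart of Mrps12ha/ha mouse 2 was the shallowest, with 1 read worth 3.02 normalized counts, and results in the heart are given with and without it. The tissue labels held in every sample: Alb, the main plasma protein of hepatocytes, lay between 2890190 and 4510910 in the livers, and the summed level of 14 heart muscle genes between 2107110 and 3112990 in the hearts. That heart muscle sum was 507.8 to 7662 in the livers, highest in Mrps12ha/ha mouse 3. The labels give no batch or date.

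The members lie on 6 chromosomes of the mouse build GRCm38, and 3 of them are neighbours. Myh2 (chr11:67171027-67197517), Myh1 (chr11:67200052-67224575) and Myh4 (chr11:67238029-67260446) stand in that order on the plus strand, 2534 and 13453 bases apart. They encode the heavy chains of the 2A, 2X and 2B fibre types. Acta1 (chr8:123891769-123894751, minus strand) encodes skeletal actin. The promoters of these 4 genes are shown because the myosin genes moved together in the livers but not in equal measure, and because Acta1 was the one member abundant in the hearts as well. The 250 bases before each RefSeq start in GRCm38.p6 are given, 5′ to 3′ on the strand of the gene. Capitals mark the longest run that the 3 myosin promoters share, and in Acta1 a match to the CArG box, the serum response factor motif.
Myh2 (chr11:67170777-67171026): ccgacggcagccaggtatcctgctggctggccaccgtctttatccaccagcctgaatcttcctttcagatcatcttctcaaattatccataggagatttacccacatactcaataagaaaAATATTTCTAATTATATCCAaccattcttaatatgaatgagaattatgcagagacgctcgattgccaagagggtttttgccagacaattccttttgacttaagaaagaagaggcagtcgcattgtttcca
Myh1 (chr11:67199852-67200101): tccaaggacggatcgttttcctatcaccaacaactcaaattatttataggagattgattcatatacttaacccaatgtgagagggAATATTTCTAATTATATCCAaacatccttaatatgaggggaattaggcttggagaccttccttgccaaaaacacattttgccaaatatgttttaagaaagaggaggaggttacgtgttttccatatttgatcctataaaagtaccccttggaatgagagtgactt
Myh4 (chr11:67237562-67237811): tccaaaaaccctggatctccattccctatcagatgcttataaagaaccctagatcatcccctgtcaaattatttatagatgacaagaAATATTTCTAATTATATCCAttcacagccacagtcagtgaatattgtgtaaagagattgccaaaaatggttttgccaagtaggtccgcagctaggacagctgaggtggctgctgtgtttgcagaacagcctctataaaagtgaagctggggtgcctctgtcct
Acta1 (chr8:123894776-123895025): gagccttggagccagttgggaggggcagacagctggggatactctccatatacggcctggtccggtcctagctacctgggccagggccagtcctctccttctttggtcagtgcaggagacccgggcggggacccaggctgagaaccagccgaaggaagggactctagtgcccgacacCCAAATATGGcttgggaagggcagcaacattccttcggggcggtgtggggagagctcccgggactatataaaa

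The shared run of 20 bases began at -130, -165 and -163 from the starts of Myh2, Myh1 and Myh4. It was in 3 of 32851 promoter windows of the table on either strand, those of these 3 genes. Motifs were searched on both strands in windows of 300 bases, 250 before the start and 50 after it. The table held 8 windows for 7 of the members, of which 2 had a CArG box (1.63% of all windows), 3 a MEF2 motif (3.19%), 4 the TATA box TATAAA (13.6%), 3 the MCAT motif CATTCC (14.7%) and 5 an E-box CANNTG (72.3%). A match is a description of the letters and does not show that a factor binds there.

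In the liver, the 10 genes were abundant in Mrps12+/+ mice 1 and 2 and scarce in the other 7 mice. Their summed level was 22661 and 28988 in these livers, against 35.6 to 174.0 in the others. As a share of all reads this was 0.0478% (exact 95% counting interval 0.0472 to 0.0483%) and 0.0579% (0.0573 to 0.0585%), or 478 and 579 CPM (counts scaled to a common total per column) against 0.672 to 3.43 CPM. Intervals on reads cover counting error only. Mrps12+/+ mouse 3 had a sum of 48.9, within the range of the 6 mutant livers. In bulk RNA, more muscle cells and more RNA per cell cannot be told apart.

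**Figure D1:**
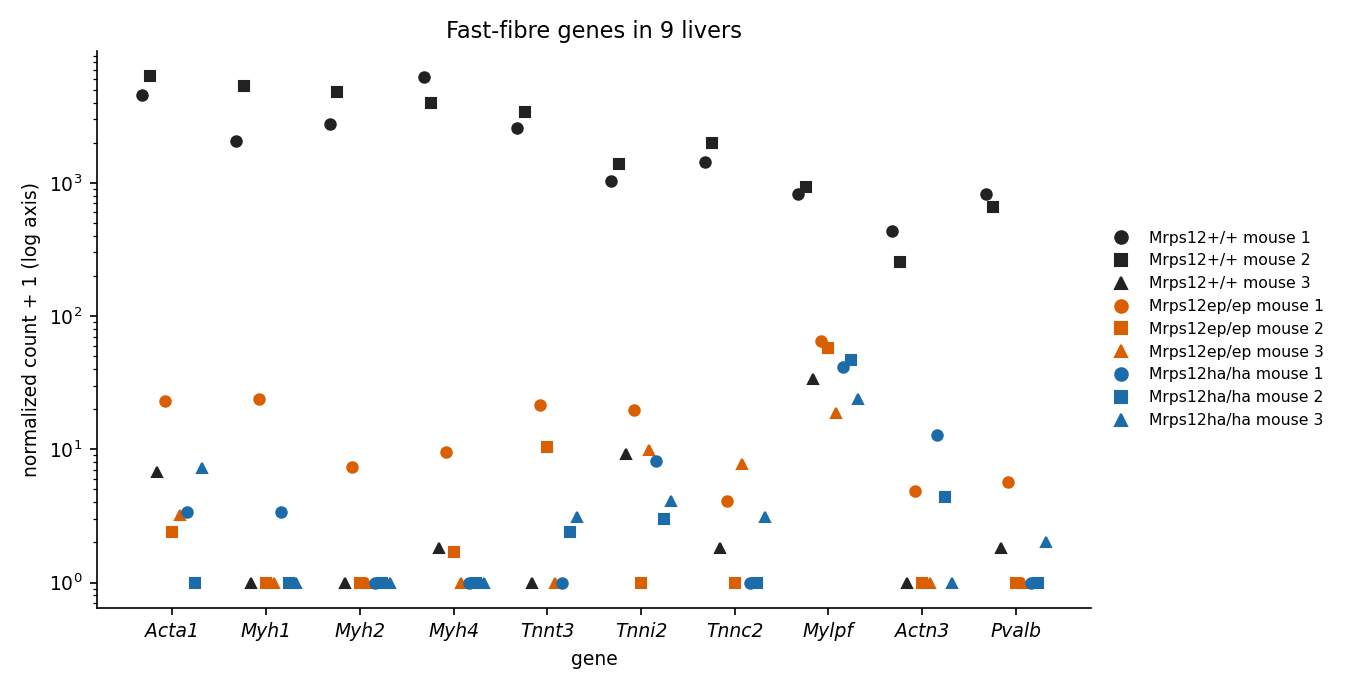
Normalized count plus 1, on a log axis, of each fast-fibre gene in each of 9 livers. Black circles and squares are Mrps12+/+ mice 1 and 2, which lie between 255.5 and 6323 for the 10 genes, and the other 7 livers (black triangles, orange and blue) reach at most 63.5.

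Of the thin filament genes, Acta1 stood at 4553 and 6323 in the livers of Mrps12+/+ mice 1 and 2. It was 5.7 in Mrps12+/+ mouse 3, 22.0, 1.4 and 2.2 in the Mrps12ep/ep livers and 2.4, 0 and 6.2 in the Mrps12ha/ha livers. The lower of the first 2 values was 207 times the highest of the other 7. Tnnt3, the fast troponin T that ties the complex to tropomyosin, was 2556 and 3387 against 0 in Mrps12+/+ mouse 3, 20.4, 9.4 and 0 in Mrps12ep/ep and 0, 1.4 and 2.1 in Mrps12ha/ha mice. Tnni2, the fast inhibitory troponin I, was 1031 and 1388, with 8.2 in Mrps12+/+ mouse 3, 18.8, 0 and 8.9 in Mrps12ep/ep and 7.1, 2.0 and 3.1 in Mrps12ha/ha mice. All 3 genes thus split the livers in the same way, with 2 Mrps12+/+ livers apart from the other liver of their genotype. Tnnc2, the fast calcium-binding troponin C, was 1429 and 1985 against 0 to 6.7 in the others, where no liver had over 4 reads.

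Of the thick filament genes, Myh4, the 2B heavy chain of the fastest fibres, was 6180 and 3957 in the livers of Mrps12+/+ mice 1 and 2. Mrps12+/+ mouse 3 had 0.8, the Mrps12ep/ep livers 8.6, 0.7 and 0, and all 3 Mrps12ha/ha livers 0. Myh1, the 2X heavy chain, was 2075 and 5309 against 0 in Mrps12+/+ mouse 3, 22.7, 0 and 0 in Mrps12ep/ep and 2.4, 0 and 0 in Mrps12ha/ha livers. The livers of mice 1 and 2 thus took opposite orders for these neighbouring genes. Myh2, the 2A heavy chain, was 2756 and 4798, and of the other 7 livers only Mrps12ep/ep mouse 1 had any read of it (6.3, 8 reads). Mylpf, the regulatory light chain of fast myosin, was 818.6 and 932.3, with 32.6 in Mrps12+/+ mouse 3, 63.5, 56.4 and 17.8 in Mrps12ep/ep and 40.5, 45.7 and 22.9 in Mrps12ha/ha mice. It was the one member with reads in every liver.

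Actn3, the alpha-actinin of the Z-disc in fast fibres, was the scarcest in the high livers, with 435.9 in Mrps12+/+ mouse 1 and 255.5 in mouse 2. The others held 0 in 4 livers and 3.9, 11.9 and 3.4 in Mrps12ep/ep mouse 1 and Mrps12ha/ha mice 1 and 2, each of them 5 reads. Pvalb, parvalbumin, a calcium buffer that speeds relaxation of fast fibres, was 825.6 and 655.0 against 0 to 4.7. Across the 9 members with over 3 reads in the highest of the other livers, the lower value of mice 1 and 2 was 12.9 times (Mylpf) to 460 times (Myh4) that liver.

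Among the other 7 livers, Mrps12ep/ep mouse 1 had the most. Its 222 reads of the members came to 3.43 CPM, and it was the highest of the 7 for 8 of the 10 genes and had at least 4 reads of each. The other 6 livers had at most 3 reads for 7 or 8 of the 10 genes. Without Mylpf these livers were near the level of single reads, so their order cannot be read.

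The difference between genotypes that these values give is set by which Mrps12+/+ livers enter it. On the log2(normalized count + 1) scale the median difference of the members was -6.80 for Mrps12ha/ha minus Mrps12+/+ and -5.78 for Mrps12ep/ep minus Mrps12+/+, with n = 3 mice a group, and all 10 were lower in both mutants. Over the 15314 genes with a mean of at least 10 in the livers the medians were -0.02 and -0.01. Without Mrps12+/+ mouse 3 the members' medians were -10.37 and -8.99, and without mouse 2 they were -4.93 and -4.04. Both comparisons share the same Mrps12+/+ livers. Placed from the lowest difference upwards, 8 and 7 of the 10 members fell within the first 20 genes. The members were chosen for their high levels in Mrps12+/+ livers, so these places and the medians above follow from that choice. They are no evidence of an effect of genotype.

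The spread within the Mrps12+/+ group was close in size to these differences. The SD of the members' log2 values over the 3 Mrps12+/+ livers was 2.72 to 6.84 with a median of 5.64, against a median of 0.26 over all 15314 genes. Since the members were chosen by the high livers of this group, its wide spread follows from the choice. In the Mrps12ep/ep and Mrps12ha/ha livers the members' median SD was 1.68 and 0.79, against 0.21 and 0.17 over all genes. Except for Mylpf, the members were at low counts there and passed the filter on the mean only through the high Mrps12+/+ livers. Their SDs in the mutants are therefore those of low counts and do not show unusual variation.

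The 2 high livers did not hold the same mix of fast-fibre genes. The ratio of mouse 2 to mouse 1 was 2.56 for Myh1 (exact 95% counting interval 2.45 to 2.67) and 1.74 for Myh2 (1.67 to 1.81), but 0.640 for Myh4 (0.618 to 0.663), 0.586 for Actn3 (0.510 to 0.672) and 0.793 for Pvalb (0.724 to 0.868). The remaining 5 members lay between, from 1.14 for Mylpf (1.05 to 1.24) to 1.39 for Tnnc2 (1.31 to 1.47) and Acta1 (1.34 to 1.44). Of the members, 7 were thus higher in mouse 2 and 3 higher in mouse 1, each with an interval that does not include 1. The same held for all 10 hepatocyte genes, 4 higher in mouse 2 and 6 higher in mouse 1, with ratios from 0.574 to 1.24. Most hepatocyte genes hold far more reads than the members, so their intervals are narrow. In the list of calcium release and uptake described below, 7 of 13 intervals lay above 1 and 0 below it. For the muscle energy list the counts were 14 and 0 of 18. An interval without 1 is thus not particular to the members, and how common it is depends on the reads. With 1 liver on each side these intervals compare the libraries and not mice of a kind. Myh7, the slow fibre heavy chain that is also the slow one of the heart, was 155.3 and 1803, a ratio of 11.6 (10.1 to 13.4).

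**Figure D2:**
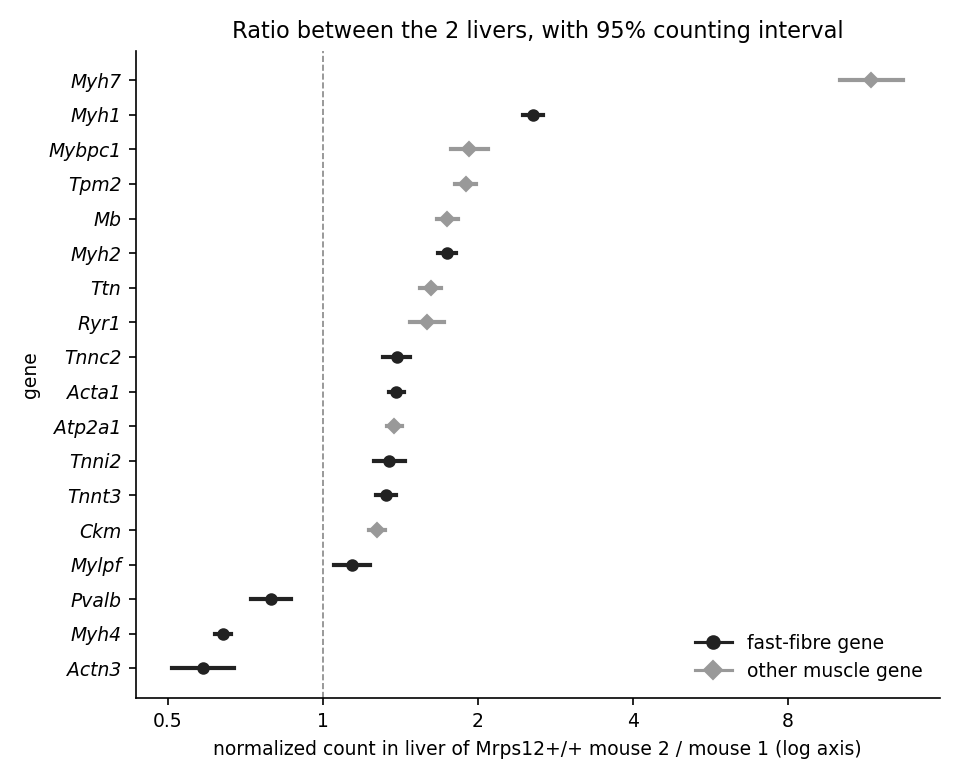
Ratio of the normalized count in the liver of Mrps12+/+ mouse 2 to that of mouse 1, on a log axis, with exact 95% counting intervals, for the 10 fast-fibre genes (black) and 8 other muscle genes (grey). Actn3, Myh4 and Pvalb lie to the left of 1, Myh1 at 2.56 is the highest fast-fibre gene, and Myh7 stands at 11.6.

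Per kilobase of the longest coding transcript, Myh4 made up 55.6% of the myosin heavy chain level in mouse 1 and 25.2% in mouse 2. Myh1 was 18.5% and 33.5%, Myh2 24.5% and 30.2%, and Myh7 1.35% and 11.1%. Myh3 and Myh8, the embryonic and perinatal heavy chains, were 0 and at most 0.0185%. The leading heavy chain was thus the 2B gene in one liver and the 2X gene in the other. Reads can be split between the copies: of the 31-base words in the coding transcripts of Myh1, Myh2 and Myh4, 37.9%, 38.5% and 30.4% also occurred in other genes, most often in one another. For the other 7 members this share was 0 to 4.11%.

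**Figure D3:**
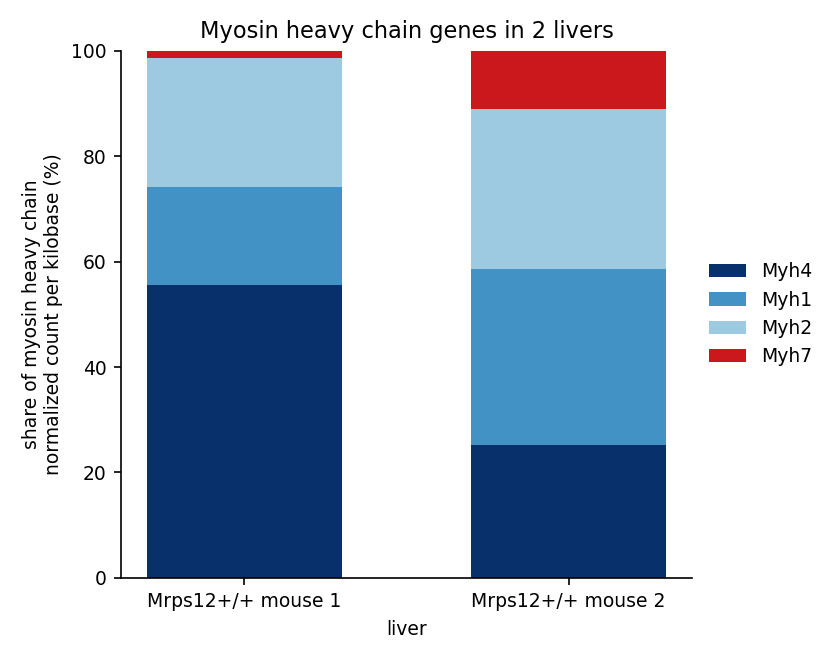
Share of each myosin heavy chain gene, in percent of their summed normalized count per kilobase, in the livers of Mrps12+/+ mice 1 and 2 (1 library pool each, no error bar). Myh4 has 55.6% in mouse 1 and 25.2% in mouse 2, where Myh1 has 33.5% and Myh7 11.1%.

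The order of the 10 genes per kilobase was the same at its ends. Acta1 led in both livers (3149 and 4373 normalized counts per kilobase), followed by Tnnt3 (2369 and 3139), Tnnc2 (2041 and 2836), Tnni2 (1343 and 1807) and Mylpf (1069 and 1217). Actn3 was last in both (151.0 and 88.5). The myosin heavy chains and Pvalb changed places between these.

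Other skeletal muscle genes were high in the same livers. Of 13 genes of calcium release and uptake, 13 were higher in Mrps12+/+ mice 1 and 2 than in each of the other 7 livers, as were 22 of 23 genes of the skeletal sarcomere and 16 of 18 genes of muscle energy use. Over all genes with a mean of at least 10 this held for 477 of 15314, or 3.11%. With the same filter the lists had 12 of 12, 21 of 22 and 16 of 18. Being over 4 times the highest of the other livers held for 82 genes (0.535%), the members among them, and for 6, 14 and 6 genes of these lists (6, 13 and 6 with the filter). It held for 10 of 10 members, which follows from their choice by these livers. Atp2a1, the calcium pump of fast fibres, was 4464 and 6144 against 0 to 33.3, and Ryr1, the calcium release channel of skeletal muscle, was 814.4 and 1299 against 2.2 to 8.6. Srl was 247.7 and 477.9 against 7.3 to 79.0, and Casq1, the calcium store protein of fast fibres, was 454.8 and 413.2 against 6.1 to 26.6.

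Sarcomere and energy genes had a wider range in the other livers. Ttn, the giant spring of the sarcomere, was 2218 and 3593 against 1.4 to 259.9, and Neb, which spans the thin filament, 1795 and 2312 against 279.6 to 836.7. The tropomyosin genes Tpm1 and Tpm2 were 4140 and 4034, and 1956 and 3702, against up to 2675 and 1338. Ckm, muscle creatine kinase, was 3847 and 4894 against 0 to 184.0, and Mb, myoglobin, 2134 and 3723 against 2.0 to 1188. The highest other liver for Srl, Ttn, Tpm1, Ckm and Mb was Mrps12ha/ha mouse 3. Gpd1 and Pfkm, which hepatocytes also use, were 25809 and 34229, and 1159 and 1683, against up to 38141 and 988.

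Of the slow fibre list, 4 of 12 genes were highest in the same 2 livers. These included Mybpc1, the slow myosin binding protein C, at 642.3 and 1235 against 1.6 to 10.8. Atp2a2 and Tpm3, which many cell types use, were 12270 and 9066, and 5742 and 5552, against up to 11739 and 5553. Genes of developing muscle and its regulators summed to 32.9 and 72.7 against 0 to 3.2. Of these 10 genes, 5 were higher in both than in each of the other livers, and 0 had a mean of at least 10. Chrna1, a subunit of the acetylcholine receptor, was 14.7 and 20.2, Myf6 4.2 and 29.9, Myod1 2.8 and 11.3 and Musk 7.0 and 5.7, and all 4 were 0 in the other 7 livers. These values rest on 4 to 37 reads each. The embryonic Myh3 was 0 in both livers, and the perinatal Myh8 was 2.1 and 1.6, against 2.4 in Mrps12ep/ep mouse 1.

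Of the 14 heart muscle genes, 1 was higher in Mrps12+/+ mice 1 and 2 than in each of the other livers (1 of 9 with a mean of at least 10). This was Sln, sarcolipin, a regulator of the calcium pump that skeletal muscle also uses, at 30.8 and 120.5 against 0 to 2.4. Myh6, the heavy chain of heart muscle, was 4289 in the liver of Mrps12ha/ha mouse 3, but 29.4 and 0.8 in Mrps12+/+ mice 1 and 2. In Mrps12ha/ha mouse 3 Tnnt2, the cardiac troponin T, was 937.8 and Actc1, cardiac actin, 698.7, against 17.5 and 25.1, and 14.0 and 29.9, in Mrps12+/+ mice 1 and 2. The fast-fibre sum in Mrps12ha/ha mouse 3, the liver highest for heart muscle genes, was 37.4 (36 reads), within the 35.6 to 174.0 of the 7 livers in which the members were scarce. Gata4, which liver cells also express, was 437.8 to 911.8 over the 9 livers.

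Markers of other tissues were measured in the same livers. The mesothelium list, of the cells that cover organs, summed to 602.5 and 575.0 in Mrps12+/+ mice 1 and 2 against 138.4 to 389.5, and 6 of its 9 genes were highest there. Among its genes with a mean of at least 10 it was 5 of 8. Upk3b was 170.7 and 158.5 against 12.2 to 131.5, Msln 121.7 and 89.8 against 19.6 to 83.3, Krt19 76.3 and 63.9 against 27.7 to 71.4 and Muc16 29.4 and 82.5 against 2.1 to 59.5. The adipocyte list summed to 808.8 and 4133, but to 8839 in Mrps12+/+ mouse 3, where the members were scarce. Of its 8 genes, 4 were higher in Mrps12+/+ mice 1 and 2 than in each of the other livers, 3 of them over 4 times. Among those with a mean of at least 10 it was 3 of 6, all 3 over 4 times. Lep, leptin, was 30.1 and 203.8 against 0 to 6.5, Adipoq, adiponectin, 34.3 and 118.1 against 0 to 3.9, Plin1, which coats fat droplets, 24.5 and 110.8 against 0 to 2.4 and Retn, resistin, 9.8 and 34.8 against 0 to 3.3. The sum was carried by other genes: Cidec (506.5 and 2474), Cidea (10.5 and 701.9) and Cfd (190.3 and 489.2) reached 7770, 647.3 and 407.6 in Mrps12+/+ mouse 3. What part any of these cell types has in the members' levels was not tested.

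Most smooth muscle and liver genes overlapped between the livers. The smooth muscle list summed to 2196 and 2222 in Mrps12+/+ mice 1 and 2, within the 1023 to 3006 of the others, with Tagln (718.5 and 602.4), Smtn (572.3 and 507.8), Acta2 (380.6 and 419.7) and Myh11 (264.5 and 292.7) each below the highest other liver. Of the 8 smooth muscle genes, 1 was higher in both than in each of the other livers. This was Synpo2, at 174.9 and 285.4 against 10.8 to 45.7. The hepatocyte list summed to 5995340 and 5475880, within the 5251360 to 6913130 of the others, and 1 of its 10 genes was higher in both than in the rest. Its leading genes were Alb (3897250 and 3373920), Apoa1 (468880 and 579167), Ahsg (366554 and 350940) and Ttr (303974 and 366324).

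**Figure D4:**
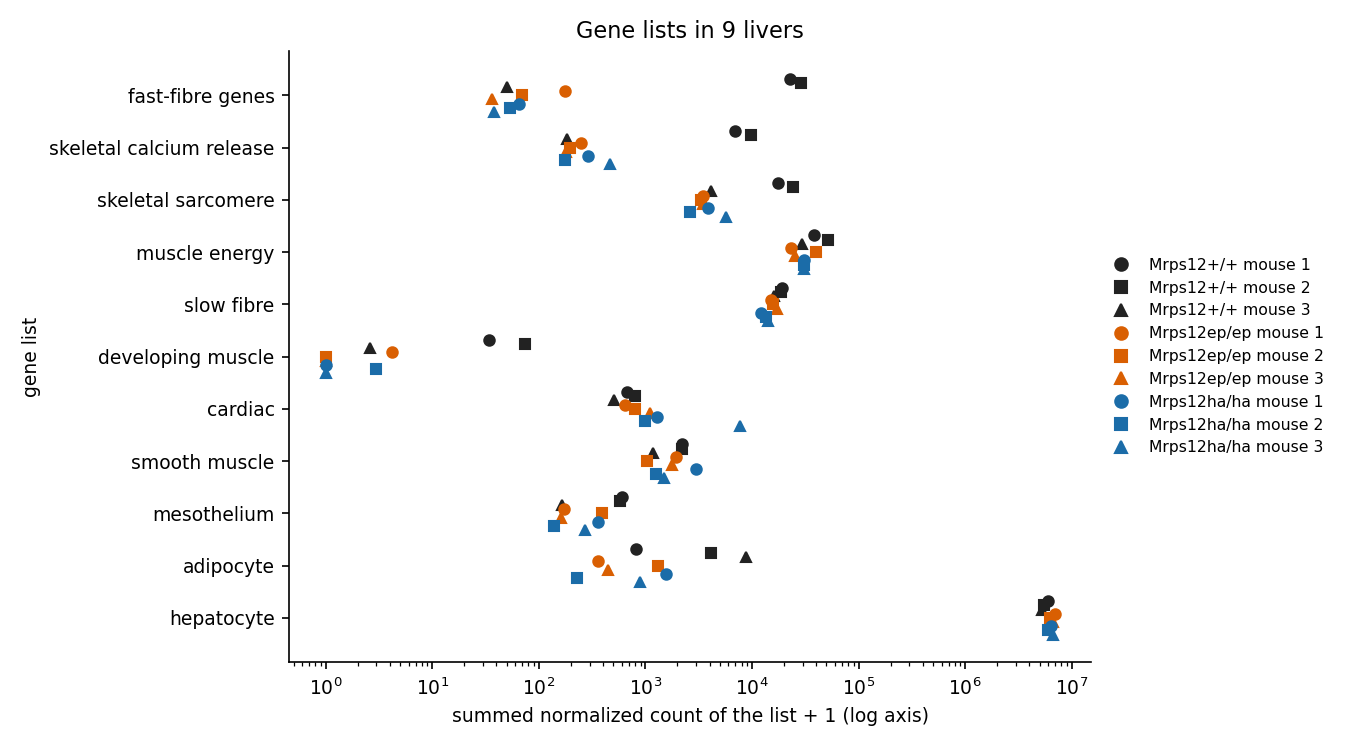
Summed normalized count plus 1 of each gene list, on a log axis, in each of 9 livers. For the fast-fibre genes the livers of Mrps12+/+ mice 1 and 2 (black circle and square) lie at 22661 and 28988 and the rest at 35.6 to 174.0, while the cardiac list is highest in Mrps12ha/ha mouse 3 (blue triangle) at 7662 and the hepatocyte list overlaps.

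Of the 10 genes most like the members over the 9 livers, 5 were in the muscle lists. By Pearson's r of the log2 level with the members' mean log2 level, over 9 livers and with no test, they were Smtnl1 (r = 0.997), Ryr1 (0.994), Ankrd23 (0.988), Myot (0.987), Myoz1 (0.983), Mylk2 (0.981), Ampd1 (0.981), Vgll2 (0.979), Prr33 (0.979) and Lrrc30 (0.976). These values rest on the 2 high livers, which all such genes share. Smtnl1 was 111.2 and 213.5 there, 3.1 in Mrps12ep/ep mouse 1 and 0 in the other 6. Ankrd23 was 861.2 and 1308 but never below 104.7. Myot, which binds the Z-disc, was 370.1 and 637.2 and at most 1.0 elsewhere, and Vgll2, Prr33 and Lrrc30 were 0 in all 7 other livers.

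The mutant livers were compared with each other, without the Mrps12+/+ livers, with limma on the log2 levels and Benjamini-Hochberg adjustment over all genes. Only Mylpf had a mean of at least 10 over these 6 livers, and 0 of 1 member was called at an adjusted p of 0.05, against 25 of 15165 genes (0.165%). At an unadjusted p of 0.05 the count was 0 of 1 member, against 1860 genes (12.3%). Its log2 difference, Mrps12ha/ha minus Mrps12ep/ep, was -0.20 (SE 0.53, 95% confidence interval -1.42 to 1.03, limma adjusted p = 0.919). The 9 other members were too low in the mutants for a test, and those low values were part of the choice of the members. With limma-voom on the recovered reads the count was also 0 of 1.

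In the heart the members fell into 3 levels. Acta1 was at 2978 to 37619, Tnni2, Mylpf, Tnnt3, Pvalb and Actn3 at 0 to 89.1, and Myh1, Myh2, Myh4 and Tnnc2 at no more than 5.5 with at most 6 reads in any heart. Acta1 made up 94.3 to 99.7% of the members' summed level in every heart. Without it the sum was 69.4 to 182.0, and in Mrps12+/+ mice 1 and 2 it was 94.8 and 166.9, within the range of the rest. Whether a mouse number stands for the same animal in both tissues is not given in the sources used here. The heavy chain genes Myh1, Myh2 and Myh4 and the troponin gene Tnnc2, high in 2 livers, were thus near single reads in all hearts. Hearts and livers were normalized separately, so levels are compared within a tissue.

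Acta1, which is also expressed in the heart, most of all before birth and under load, was 37619, 20543 and 6961 in Mrps12+/+ hearts. It was 7820, 10462 and 6920 in Mrps12ep/ep and 3282, 2978 and 3004 in Mrps12ha/ha hearts. The Mrps12ha/ha hearts lay below every other heart, with a narrow spread (3088 ± 169, SD, n = 3) beside the Mrps12+/+ hearts (21708 ± 15362) and the Mrps12ep/ep hearts (8401 ± 1841). The log2 difference was -2.51 for Mrps12ha/ha minus Mrps12+/+ (SE 0.49, 95% confidence interval -3.60 to -1.41, limma adjusted p = 0.153) and -1.42 for Mrps12ha/ha minus Mrps12ep/ep (SE 0.49, -2.52 to -0.33, limma adjusted p = 0.246). For Mrps12ep/ep minus Mrps12+/+ it was -1.08 (SE 0.49, -2.18 to 0.01, limma adjusted p = 1). None of these passed the threshold of 0.05.

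Pvalb was highest in the Mrps12ha/ha hearts, where Acta1 was lowest, but did not otherwise reverse the order of Acta1. It was 4.3, 3.5 and 3.8 in Mrps12+/+, 3.0, 16.2 and 2.7 in Mrps12ep/ep and 53.4, 18.1 and 42.9 in Mrps12ha/ha hearts, the last from 29, 6 and 62 reads. The Mrps12ha/ha hearts lay above all others, though the lowest of them was close to the highest Mrps12ep/ep heart. The log2 difference was 2.88 for Mrps12ha/ha minus Mrps12+/+ (SE 0.70, 95% confidence interval 1.31 to 4.45, limma adjusted p = 0.191) and 2.50 for Mrps12ha/ha minus Mrps12ep/ep (SE 0.70, 0.92 to 4.07, limma adjusted p = 0.236). Neither was called.

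Actn3 was 7.8, 16.4 and 11.3 in Mrps12+/+ hearts and 3.0, 42.9 and 17.3 in Mrps12ep/ep hearts. In Mrps12ha/ha hearts it was 1.8, 0 and 0.7, which is 1, 0 and 1 reads, so that the size of the difference depends on the pseudocount. The log2 difference was -2.88 for Mrps12ha/ha minus Mrps12+/+ (SE 0.90, limma adjusted p = 0.210) and ranged from -4.42 to -1.15 over the alternatives. Against Mrps12ep/ep it was -3.13 (SE 0.90, limma adjusted p = 0.236). Actn3 is thus at or near the limit of detection in the Mrps12ha/ha hearts and was not called.

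Tnni2, Mylpf and Tnnt3 overlapped between Mrps12ha/ha and Mrps12+/+ hearts. Tnni2 was 36.2, 89.1 and 83.0 in Mrps12+/+, 61.4, 49.9 and 61.8 in Mrps12ep/ep and 40.5, 21.1 and 45.6 in Mrps12ha/ha hearts, and its log2 difference for Mrps12ha/ha minus Mrps12+/+ was -0.91 (SE 0.41, limma adjusted p = 0.256). Mylpf was 26.7, 37.2 and 26.4, then 37.6, 28.4 and 26.3, then 35.0, 15.1 and 43.6 in the same order, and the difference was -0.06 (95% confidence interval -0.995 to 0.88). Tnnt3 was 15.5, 13.8 and 23.3, then 7.9, 26.7 and 10.0, then 29.5, 9.1 and 41.5, a difference of 0.38 (-1.05 to 1.81). The intervals of Mylpf and Tnnt3 include changes of more than 1.5 times in either direction. The adjusted p was 0.947 for Mylpf and 0.739 for Tnnt3 with limma.

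**Figure D5:**
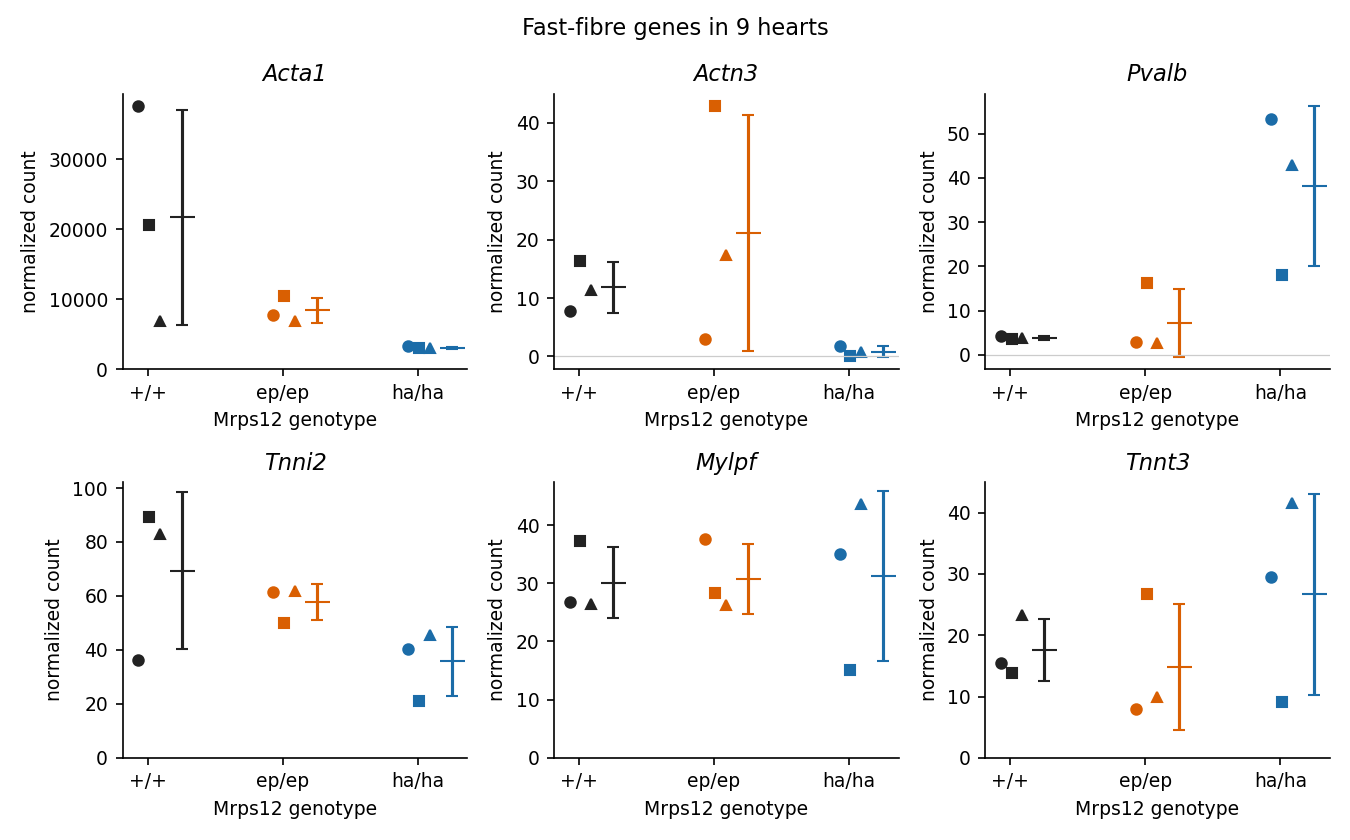
Normalized count of 6 fast-fibre genes in 9 hearts by Mrps12 genotype, with circles for mouse 1, squares for mouse 2 and triangles for mouse 3, and beside them the mean with SD (n = 3). Acta1 in the 3 Mrps12ha/ha hearts lies at 2978 to 3282, under all other hearts, and Pvalb at 18.1 to 53.4, above them.

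Over the 6 members that passed the filter on low values, 0 were called in each comparison of the hearts. Pvalb passed that filter through its level in the Mrps12ha/ha hearts alone, and Actn3 through the other hearts, so the counts that hold them describe the members and support no difference. All genes had 5 calls of 16057 (0.0311%) for Mrps12ha/ha against Mrps12+/+, 0 (0%) for Mrps12ep/ep against Mrps12+/+ and 4 (0.0249%) for Mrps12ha/ha against Mrps12ep/ep. At an unadjusted p of 0.05 the members' counts were 3, 0 and 3 of 6, against 19.7%, 1.69% and 17.9% of all genes, and limma-voom on the recovered reads called 0 of 6 in each comparison. The levels of 2 groups did not overlap for 3, 0 and 4 of the 6 members, against 21.2%, 8.03% and 16.6% of all genes. An exact permutation test of 3 against 3 mice cannot go below p = 0.1. The median log2 difference of the 6 members was -0.48, -0.07 and -0.41, beside -0.02, -0.01 and -0.02 over all genes.

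The counts changed when single hearts were left out. Without Mrps12ha/ha mouse 2, Acta1 (log2 difference -2.48, limma adjusted p = 0.0172, range over all alternatives 0.00443 to 0.457) and Pvalb (3.33, limma adjusted p = 0.0138, range 0.00403 to 0.540) were called against Mrps12+/+, Pvalb subject to the filter as above, 2 of 6 members beside 4320 of 16079 genes (26.9%). Against Mrps12ep/ep Pvalb was called (2.95, limma adjusted p = 0.0239, range 0.00187 to 0.540), 1 of 6 beside 3728 genes (23.2%). With array weights, which let limma give each heart its own weight, 3 of 6 members were called in each comparison, beside 5573 (34.7%) and 6314 genes (39.3%). Acta1, Actn3 and Pvalb were called against Mrps12+/+, and Actn3, Pvalb and Tnnt3 against Mrps12ep/ep. Without Mrps12+/+ mouse 3, whose Acta1 level was the lowest of its group, Acta1 alone was called against Mrps12+/+ (-3.17, limma adjusted p = 0.00443) among 5 genes (0.0312%).

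Other markers moved with the hearts. Myl7, a myosin light chain of the atria, was 28.4, 33987 and 25002 in Mrps12+/+, 21.8, 51454 and 17872 in Mrps12ep/ep and 189.6, 132.9 and 1990 in Mrps12ha/ha hearts. Actn3 was highest in Mrps12ep/ep mouse 2, the heart with the most Myl7. With the mean of 4 atrial genes as a covariate the log2 differences for Mrps12ha/ha minus Mrps12+/+ were -2.71 for Acta1, 3.10 for Pvalb and -2.25 for Actn3, and 0 of 6 members were called. Nppb, a natriuretic peptide gene of the ventricle under load, was 7885, 2782 and 1275 in Mrps12+/+ hearts, in the order that Acta1 has there. In Mrps12ep/ep hearts Nppb was 5096, 4976 and 3246, not in the order of Acta1. In Mrps12ha/ha hearts, where Acta1 hardly varied, Nppb was 3582, 2875 and 954.3. Nppa, the other natriuretic peptide gene of the heart muscle list, was 7983, 78294 and 54983 in Mrps12+/+ hearts, not in the order of Acta1. A link of either gene to Acta1 was not tested. The mesothelium list summed to 486.9 to 769.3 in Mrps12ha/ha and 917.2 to 3720 in the other hearts. All 9 of its genes were lower in Mrps12ha/ha than in Mrps12+/+ hearts, with 0 called and a lowest limma adjusted p of 0.0943. At an unadjusted p of 0.05 in limma the count was 7 of 9, beside 19.7% of all genes. In the same comparison 7 of 7 adipocyte genes tested were lower (median log2 difference -3.75), as were 9 of 9 hepatocyte genes (-0.56) and 7 of 8 smooth muscle genes (-0.83). Of these 0 were called by limma, and 2, 0 and 1 had an unadjusted p below 0.05. For Mrps12ep/ep minus Mrps12+/+ 7 of 7, 9 of 9 and 7 of 8 were lower as well, with medians of -2.13, -2.57 and -0.17. The adipocyte list summed to 1366, 1740 and 18645 in the Mrps12+/+ hearts, so mouse 3 stood apart. What part these cells have in the members' levels was not tested.

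The other muscle lists had no called gene in the hearts by limma. Of the calcium release list 12 of 13 genes were tested, of the skeletal sarcomere list 20 of 23, of the energy list 17 of 18 and of the slow fibre list 12 of 12. Their median log2 differences for Mrps12ha/ha minus Mrps12+/+ were -0.31, -0.43, 0.11 and 0.10. At an unadjusted p of 0.05 in limma the counts were 3 of 12, 7 of 20, 1 of 17 and 3 of 12, beside 19.7% of all genes. The genes most like the members' mean over the 9 hearts, as a description, were Chst15 (r = 0.954), Lhfpl4 (0.954), Greb1l (0.952), Procr (0.949) and Dusp2 (0.945), none of them in a muscle list. The correlation of each member with the mean of the other 9, over 9 hearts and as a description, ran from -0.39 for Tnnc2 to 0.64 for Tnnt3, with 4 of the members at 6 reads or fewer.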

How the data were processed

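RNA sequencing of 54 libraries from the hearts and livers of 9 mice per tissue was used, 3 technical libraries a mouse. The authors trimmed reads with Trim Galore 0.4.1 and cutadapt 1.18, pooled replicate libraries (read here as those of 1 mouse), quantified genes with Salmon 1.1.0 on GENCODE vM21 (GRCm38.p6) and normalized the counts with DESeq2. The deposited values, a normalized count score rounded to 1 decimal, were whole multiples of 1 read (100% of low values, within 0.1 reads), from which reads and depth were recovered. Columns were joined to mice by the sample numbers in the labels. The deposited tables of comparisons hold the authors' fold changes and p-values and were not used.

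In R 4.3.3, limma 3.58.1 was run on log2(normalized count + 1) (lmFit, eBayes with trend) over genes with a mean of at least 10, with Benjamini-Hochberg adjustment at 0.05. All 9 hearts entered one fit, and the 6 mutant livers another. The fit was tested on simulated data. Alternatives were other pseudocounts and filters, quantile normalization, array weights, a replicate block, 2 genotypes only, leaving out each mouse, limma-voom on reads and an atrial covariate, the last 2 chosen after seeing the data. Counting intervals were exact (scipy 1.17.1). The members and lists were chosen with earlier results of these data known. Named were all members, the 4 genes of each other list highest in the livers, and the genes most like the members (10 in livers, 5 in hearts). One further list of marker genes is not reported here. Nppa, Nppb, Myl7, Sln, Synpo2, Adipoq, Plin1 and Retn were named after their values were seen. Gene coordinates are from GENCODE vM21, and promoters and motifs from RefSeq. The labels give no litter or cage of single mice.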

Additional observations from a re-analysis of the deposited data

How the results depend on the processing

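The members called in the heart were 0 for Mrps12ha/ha against Mrps12+/+, and 3 with array weights and 0 to 2 when 1 mouse was left out. For Mrps12ha/ha against Mrps12ep/ep they were 0, and 3 with array weights and 0 to 1 when 1 mouse was left out. For Mrps12ep/ep against Mrps12+/+, and for Mrps12ha/ha against Mrps12ep/ep in the liver, they were 0 under all alternatives run. The signs of Acta1, Actn3 and Pvalb in both comparisons of the Mrps12ha/ha hearts held in every alternative that tested them. These alternatives draw on the same hearts. Pvalb and Actn3 passed the filter on low values only through the hearts where they were high, so their signs support no difference. The medians in the liver ran from -10.37 to -4.93 for Mrps12ha/ha and from -8.99 to -4.04 for Mrps12ep/ep minus Mrps12+/+ when 1 mouse was left out.

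Signs turned for differences near 0, and the cause was not tested. In the heart, Mylpf in Mrps12ha/ha minus Mrps12+/+ was 0.31 with array weights, 0.15 with limma-voom and -0.35 to 0.38 when 1 mouse was left out, and Tnnt3 was -0.045 to 0.99 when 1 was left out. For Mrps12ep/ep minus Mrps12+/+ array weights gave -0.18 for Pvalb and -0.16 for Mylpf, and leaving out 1 mouse -0.34 to 0.77 for Pvalb, -0.12 to 0.19 for Mylpf and -0.57 to 0.064 for Tnni2. For Mrps12ha/ha minus Mrps12ep/ep, Mylpf was 0.47 with array weights, 0.061 with limma-voom and -0.38 to 0.35 when 1 mouse was left out. In the liver, Mylpf in the same comparison was -0.76 to 0.13 when 1 mouse was left out.

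The replicate block left 0 members called in each of the 4 comparisons, with a limma adjusted p of 0.11 for Acta1 in Mrps12ha/ha against Mrps12+/+ hearts (0.00443 to 0.457 over its alternatives). The mice share only a number, so they were not paired. Same-numbered mice deviated together with r from -0.23 to 0.58 in the heart and from -0.13 to 0.16 in the liver. The highest values were between Mrps12+/+ and Mrps12ep/ep hearts, 0.58 for mouse 1 and 0.41 for mouse 2, against -0.07 for mouse 3. What these hearts share was not tested. The edgeR and DESeq2 fits that had been planned were not run, since the tables, which hold normalized values written with comma separators, were not accepted as counts, and limma-voom was run on the recovered reads instead. Depth limits the members near single reads, and with 3 mice a group p-values measure only the spread between these mice.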
